A study of Mus musculus with 84 samples.

Results

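The genes examined are 10 transcription regulators of astrocyte identity and gliogenesis, namely Sox9, Sox2, Nfia, Nfib, Nfix, Hes1, Hes5, Id1, Id3 and Id4. They were taken as a list of gene names. The list covers 10 of the 48526 genes in the table of the experimental autoimmune encephalomyelitis (EAE) experiment and 10 of the 25773 genes in the table of the astrocyte subtype experiment. EAE was induced in 10-week-old female C57BL/6 mice with a MOG peptide in complete Freund's adjuvant and pertussis toxin, and controls (C) were not immunized. Mice were taken at score 1 (E1, limp tail), at score 4 (E4, hind leg paralysis) and in the chronic stage (Ech). Cells were sorted as CD11B negative, CD45 negative and ACSA-2 positive, where ACSA-2 is the astrocyte surface protein ATP1B2, and were divided by GLAST, the glutamate transporter SLC1A3. The 66 EAE libraries fall into 12 groups, which are these 4 conditions in spinal cord GLASTneg, hindbrain GLASTneg and hindbrain GLASTpos astrocytes, with 4 to 6 libraries a group. The subtype experiment holds 15 libraries of untreated FVB/N mice in 5 populations, 3 libraries each of forebrain and hindbrain GLASTneg and GLASTpos and of spinal cord GLASTneg cells, and 3 libraries of astrocytes cultured from newborn C57BL/6 cerebrum. A sorted library could hold RNA from as many as 2 mice. The sorted libraries depend on a gate for surface ATP1B2 and GLAST, and the cultured cells were not sorted.

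SOX9 is a DNA-binding factor needed for the switch of neural progenitors from making neurons to making glia, and in the adult brain it is a nuclear label of astrocytes. SOX2 maintains neural stem cells and stays on in mature astrocytes. The nuclear factor I proteins NFIA, NFIB and NFIX act in gliogenesis, NFIA together with SOX9, and bind astrocyte genes such as Gfap. HES1 and HES5 are repressors switched on by Notch receptors through the DNA-binding protein RBPJ, and they hold back neuronal genes. ID1, ID3 and ID4 lack a DNA-binding domain and take up the partners of basic helix-loop-helix factors. Their genes are classic targets of bone morphogenetic proteins (BMPs) acting through SMAD proteins.

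On the GRCm38 build Sox9 lies at chr11:112782224-112787760, Sox2 at chr3:34650405-34652461, Nfia at chr4:97772734-98118874, Nfib at chr4:82290173-82705750 and Nfix at chr8:84699876-84800344. Hes1 lies at chr16:30064384-30067796, Hes5 at chr4:154960923-154962371, Id1 at chr2:152736251-152737410, Id3 at chr4:136143497-136145755 and Id4 at chr13:48261228-48266026. Nfib and Nfix are on the minus strand and the other 8 genes on the plus strand. Exons of Hes5, Id4, Nfia and Nfix overlap exons of genes on the opposite strand (Gm20421 for Hes5, A330033J07Rik for Id4, E130114P18Rik for Nfia, and G430095P16Rik and Lyl1 for Nfix). Whether the counting used strand is not given in the sources used here, so reads of these pairs cannot be told apart.

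RefSeq start sites with a sequence window on GRCm38.p6 were found for 6 of the 10 genes. The 250 bases before the start are shown for Hes5 and Id4, because these were the members that differed most between hindbrain GLASTneg and GLASTpos control astrocytes, in opposite directions. Capitals mark the core of the RBPJ motif (GTGGGAA on either strand), the SMAD-bound GC box GGCGCC and the SOX core ATTGT on either strand, and no match overlaps another. The window of Hes5 is chr4:154960673-154960922 (plus strand) and that of Id4 is chr13:48260866-48261115 (plus strand).
Hes5: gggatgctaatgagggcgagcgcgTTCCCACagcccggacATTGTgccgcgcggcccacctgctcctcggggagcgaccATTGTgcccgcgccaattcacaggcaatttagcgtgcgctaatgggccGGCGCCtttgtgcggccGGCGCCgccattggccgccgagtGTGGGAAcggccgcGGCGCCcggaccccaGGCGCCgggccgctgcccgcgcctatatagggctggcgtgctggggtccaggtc
Id4: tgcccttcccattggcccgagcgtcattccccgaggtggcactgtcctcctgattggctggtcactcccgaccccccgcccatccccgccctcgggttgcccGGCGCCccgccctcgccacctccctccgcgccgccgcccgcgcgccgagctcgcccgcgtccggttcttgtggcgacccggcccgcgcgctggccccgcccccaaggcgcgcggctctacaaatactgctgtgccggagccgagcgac
The Hes5 window held 2 matches of GTGGGAA, 4 of GGCGCC and 2 of ATTGT, and the Id4 window held 1 match, of GGCGCC. Among 32851 windows of the same length before mouse start sites, 5.42% held GTGGGAA, 9.59% GGCGCC and 27.7% ATTGT. A match describes these letters and does not show that a protein bound them.

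Each EAE library held 1313682 to 4895220 counts (median 2936680), each sorted FVB/N library 416768 to 1269316 and each cultured library 2183464 to 8188074. Levels are in counts per 1000000 (CPM) after TMM scaling, given as mean ± SD over libraries, and they are compared for 1 gene between groups and not between genes. A library was taken as at its floor for a gene at 3 counts or fewer, which equals 0.634 to 2.44 CPM in the EAE libraries and 2.45 to 7.05 CPM in the sorted FVB/N libraries. Floors and the intervals of count ratios cover counting error only, whereas the 95% intervals of log2 differences come from the edgeR SE over libraries. Fold changes come from edgeR's two-sided quasi-likelihood test over all genes with at least 10 counts in a fit, and genes whose p adjusted by Benjamini-Hochberg over the whole fit was under 0.05 are termed called. Hindbrain libraries had summed levels of 8 astrocyte markers of 15166 to 22366 CPM by group and summed levels of 10 oligodendrocyte markers of 1255 to 6727 CPM. Hindbrain GLASTneg groups averaged 1030 to 1402 CPM of Slc1a3 and hindbrain GLASTpos groups 6180 to 8937 CPM.

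The spinal cord libraries changed in cell type markers along with disease. The summed level of 7 astrocyte markers (Aqp4, Aldh1l1, Slc1a2, Gja1, Gjb6, Aldoc and Fgfr3) was 12269 ± 1979 CPM (SD, n = 5; 9239 to 14655) in controls, 6702 ± 5084 CPM at E1 (n = 5; 2800 to 15475), 1070 ± 435.8 CPM at E4 (n = 6; 522.4 to 1709) and 831.4 ± 261.3 CPM at Ech (n = 6; 504.7 to 1133). Atp1b2, the gene of the sorted antigen, averaged 6598 CPM in controls and 3492, 356.8 and 456.1 CPM at E1, E4 and Ech. S100b, an astrocyte marker that is also present in oligodendrocytes, averaged 2141, 1900, 2208 and 3989 CPM in C, E1, E4 and Ech. It is the gene of the 8 astrocyte markers that the sum of 7 leaves out. The sum of all 8 averaged 14409, 8602, 3279 and 4820 CPM in C, E1, E4 and Ech. The sum of 10 oligodendrocyte markers was 22087 CPM in controls (14358 to 41875), 41800 CPM at E1 (26912 to 62071), 53354 CPM at E4 (30361 to 77684) and 32622 CPM at Ech (25393 to 41609). Markers of oligodendrocyte precursors averaged 351.6, 378.5, 510.1 and 1309 CPM in C, E1, E4 and Ech, those of myeloid cells 41.67, 138.8, 1095 (up to 5501 in 1 library) and 137.3 CPM, and those of neurons 230.6, 466.1, 557.3 and 350 CPM. These sums moved with the spinal cord results, their part in which was not tested, and fewer astrocytes in a library and less RNA per astrocyte cannot be told apart in bulk samples. E1 library 2 stood apart from the other E1 libraries, with an astrocyte sum of 15475 CPM and the lowest oligodendrocyte sum of its group, 26912 CPM. E1 library 1 has a region field that reads hindbrain and a title that reads spinal cord, and its sum of 5 spinal cord Hox genes was 178.7 CPM, against 58.86 to 249.8 CPM in the other E1 libraries and at most 10.96 CPM in any hindbrain library, so the title was used.

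Among the SOX factors, Sox9 fell from 422.1 ± 25.52 CPM in spinal cord controls to 29.41 ± 17.72 CPM at E4 and 22.83 ± 9.421 CPM at Ech. The control libraries held 393.9, 409.8, 417.9, 426.8 and 462.3 CPM of Sox9. The 5 E1 libraries held 94.81, 98.31, 150.8, 194.6 and 624.8 CPM. Thus 4 E1 libraries lay below all controls and library 2, which stood apart in its markers, lay above all of them. The E1 difference was -0.86 ± 0.31 on the log2 scale (SE) and was not called (edgeR adjusted p = 0.065), whereas without E1 library 2 it was -1.65 (edgeR adjusted p = 1.1e-05). At E4 Sox9 ranged from 11.28 to 60.68 CPM with a median of 23.05 CPM, and at Ech from 8.095 to 33.93 CPM with a median of 24.22 CPM. No E4 or Ech library overlapped a control. The fall was 14.3-fold at E4 (log2 -3.84 ± 0.32, edgeR adjusted p = 2.3e-16) and 18.5-fold at Ech (log2 -4.21 ± 0.32, edgeR adjusted p = 1.1e-17).

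Sox2 fell at all 3 stages. Controls held 202.7, 250.3, 269.4, 282.1 and 303.2 CPM and the E1 libraries 49.38, 67.48, 102.1, 124.6 and 148.6 CPM, with no overlap. The decrease was 2.66-fold at E1 (log2 -1.41 ± 0.26, edgeR adjusted p = 9.2e-05), 3.16-fold at E4 (log2 -1.66 ± 0.25) and 2.24-fold at Ech (log2 -1.16 ± 0.24). At E4 the libraries ranged from 39.12 to 151.3 CPM (median 78.49) and at Ech from 65.42 to 161.7 CPM (median 112.9), all below every control.

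The 3 NFI genes did not move alike in spinal cord. Nfib fell at each stage, from 469.6 ± 97.08 CPM in controls to 275.7 ± 89.84 CPM at E1, 118.3 ± 15.85 CPM at E4 and 189 ± 42.61 CPM at Ech. Its control libraries held 384.7, 385.4, 435.2, 543.9 and 598.9 CPM and its E1 libraries 135.5, 258.7, 290.1, 316.3 and 378.1 CPM. No EAE library reached the lowest control, and the decrease was 1.7-fold at E1 (edgeR adjusted p = 0.0042), 3.97-fold at E4 (edgeR adjusted p = 1.7e-14) and 2.48-fold at Ech (edgeR adjusted p = 2.1e-08). The E1 call of Nfib was lost in a fit on these 2 groups alone (log2 -0.74, edgeR adjusted p = 0.13) and with only the libraries whose titles carry a sample number of 57 or higher (log2 -0.60, edgeR adjusted p = 0.19). Nfia was not called at any stage. It averaged 324.1 ± 48.36 CPM in controls (255 to 377.4), 357.3 ± 51.7 CPM at E1 (301.1 to 422), 287.6 ± 54.25 CPM at E4 (224.2 to 348.6) and 320.6 ± 16.12 CPM at Ech (296.4 to 339.2). The 95% interval of its log2 difference was -0.16 to 0.44 at E1, -0.46 to 0.12 at E4 and -0.31 to 0.28 at Ech. Nfix was not called either, with log2 differences of -0.10 (-0.43 to 0.23), 0.36 (0.04 to 0.68, edgeR adjusted p = 0.1) and -0.04 (-0.35 to 0.28). Its E4 libraries ranged from 439.4 to 798.8 CPM (median 642.3) beside 435.5 to 608.6 CPM in controls. For Nfia and Nfix these intervals leave out a log2 change of 1 in either direction at all 3 stages.

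**Figure D1:**
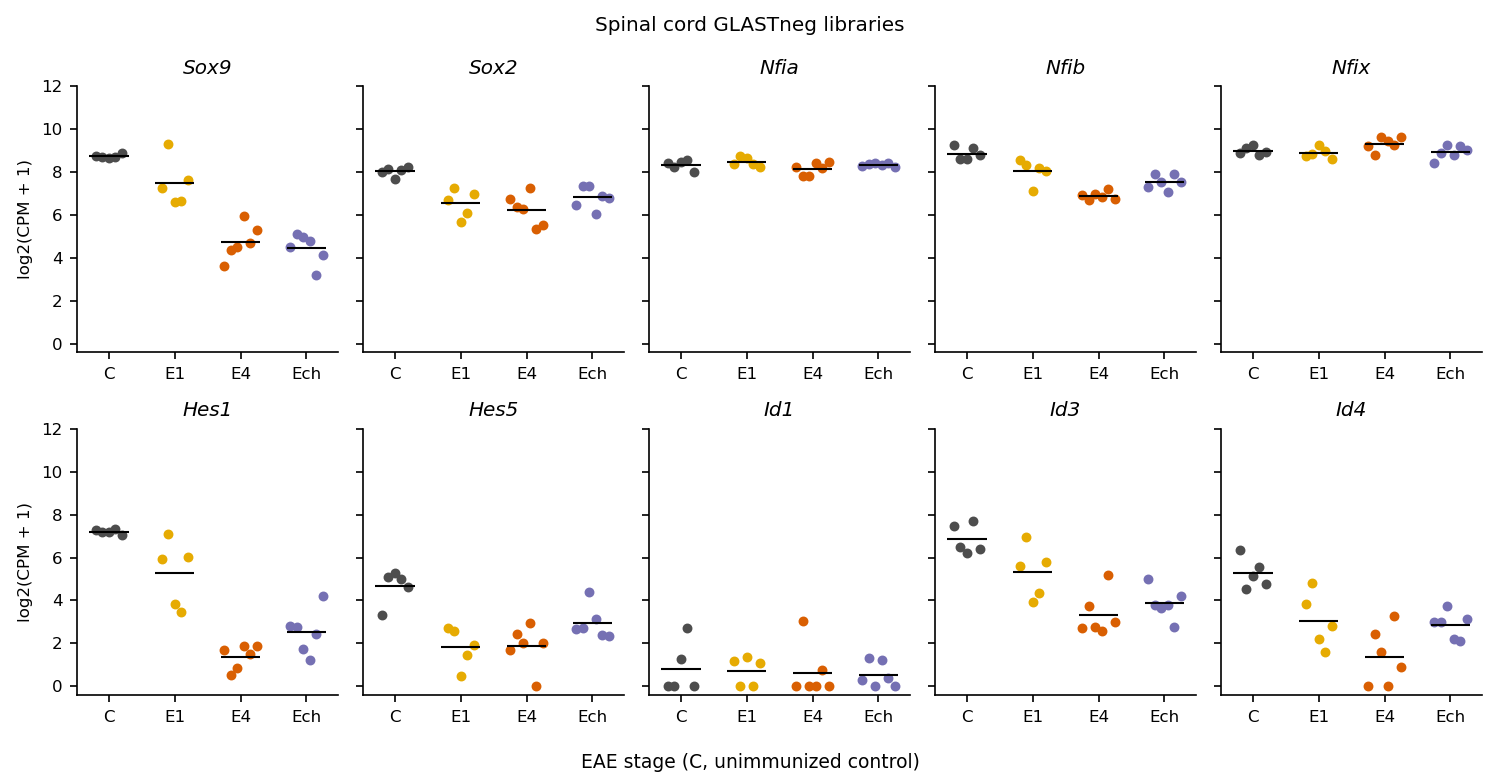
Levels of the 10 genes in the 22 spinal cord GLASTneg libraries, as log2(CPM + 1) on the vertical axis by EAE stage, with 1 point a library and a bar at the mean of the log2 values. Sox9 and Hes1 of the E4 and Ech libraries lie below all controls, while Nfia and Nfix overlap the controls at every stage.

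Of the HES repressors, Hes1 showed the largest decrease of the 10 genes at E4 and Ech. Its control libraries held 130.6, 143.6, 144.3, 153.2 and 158.6 CPM. At E1 the libraries held 9.934, 13.43, 60.98, 64.39 and 135.8 CPM, where the highest is again library 2 and overlaps the controls. At E4 Hes1 was between 0.4493 and 2.723 CPM (median 2.038), with 29 counts in all 6 libraries together and 4 of 6 above the floor. At Ech it was between 1.363 and 17.26 CPM (median 5.153). The decrease was 2.57-fold at E1 (log2 -1.36 ± 0.46, edgeR adjusted p = 0.048), 82.6-fold at E4 (log2 -6.37 ± 0.58, edgeR adjusted p = 6.8e-15) and 23-fold at Ech (log2 -4.52 ± 0.50, edgeR adjusted p = 1.4e-11). The E1 call was lost when any library other than E1 library 2 was left out.

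Hes5 was low in control spinal cord and lower in EAE. Controls held 8.923, 23.4, 31.4, 33.46 and 37.84 CPM and the E1 libraries 0.395, 1.713, 2.812, 5.013 and 5.476 CPM. All EAE libraries at E1 and E4 lay below all controls, and at Ech 1 library at 20.09 CPM overlapped them. The decrease was 8.59-fold at E1 (log2 -3.10 ± 0.48, edgeR adjusted p = 3.3e-06), 8.63-fold at E4 (log2 -3.11 ± 0.46, edgeR adjusted p = 9.5e-08) and 3.4-fold at Ech (log2 -1.77 ± 0.41, edgeR adjusted p = 0.00067). With only libraries of sample number 57 or higher Hes5 was not called at Ech (log2 -1.64, edgeR adjusted p = 0.069). At E4, where 1 such library remained, it was at log2 -3.13. At E4 the highest Hes5 value was 6.613 CPM and 1 library held none.

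Id3 and Id4 fell in spinal cord at each stage, and Id1 was too low there to be compared. Id3 was 126.4 ± 62.27 CPM in controls (73.39, 83.29, 89.22, 176.5 and 209.8) and 51.85 ± 43.62 CPM at E1 (14.22, 19.52, 48.29, 53.7 and 123.5), where the groups overlapped. At E4 it ranged from 5.057 to 35.48 CPM (median 6.407) and at Ech from 5.696 to 30.57 CPM (median 12.78), below all controls. Its decrease was 2.45-fold at E1 (edgeR adjusted p = 0.042), 10.2-fold at E4 (edgeR adjusted p = 2.4e-09) and 8.26-fold at Ech (edgeR adjusted p = 2.7e-08), and leaving out control library 4 ended the E1 call (log2 -1.04 against -1.29), as did 5 other libraries.

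Id4 was 41.91 ± 23.62 CPM in spinal cord controls (21.98, 26.2, 34.4, 46.16 and 80.81) and 10.37 ± 10.22 CPM at E1 (2.055, 3.555, 5.904, 13.44 and 26.89). It ranged from 0 to 8.644 CPM at E4 (median 1.482) and from 3.298 to 12.48 CPM at Ech (median 7.043). At E1 library 2 overlapped the controls, and at E4 and Ech no library did. The decrease was 4.09-fold at E1 (log2 -2.03 ± 0.50, edgeR adjusted p = 0.0045), 13.6-fold at E4 (log2 -3.76 ± 0.53, edgeR adjusted p = 3.1e-08) and 5.91-fold at Ech (log2 -2.56 ± 0.48, edgeR adjusted p = 2.7e-05). With only libraries of sample number 57 or higher Id4 was not called at E1 (log2 -1.82, edgeR adjusted p = 0.07). Id1 was above the floor in 2 of 5 controls and in 3 of 5, 1 of 6 and 1 of 6 libraries at E1, E4 and Ech, so a difference was not detectable at this depth.

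In all, 6 of the 10 genes were lower at E1, 7 at E4 and 7 at Ech, and none was higher. Of all 23324 genes tested, 4.48% were lower at E1 (8.42% called in either direction), 12.7% at E4 (22.4%) and 11% at Ech (18.7%). These include many genes of low count. In a fit on the 15748 genes that pass edgeR's expression filter, 14.4%, 33.7% and 28% were called in either direction. The median log2 change of the 10 genes was -1.08, -2.55 and -1.60 at the 3 stages, where that of all genes was 0.00. From E1 to E4 there was a further decrease of 5 of the 10 genes (5.97% of all genes called, 4.56% lower), namely Sox9 by 7.87-fold, Nfib by 2.33-fold, Hes1 by 32.1-fold, Id3 by 4.16-fold and Id4 by 3.31-fold (log2 -1.73 ± 0.55, edgeR adjusted p = 0.043). Of the titles' sample numbers, 1 of 5 at E1 and 5 of 6 at E4 are 56 or lower, and with these number ranges as a term Id3 (log2 -1.40, edgeR adjusted p = 0.28) and Id4 (log2 -1.04, edgeR adjusted p = 0.63) were no longer called. In a fit on these 2 groups alone Id3 (log2 -2.06, edgeR adjusted p = 0.057) and Id4 (log2 -1.86, edgeR adjusted p = 0.32) were not called either. The Id4 call was lost when any of 6 libraries was left out, down to log2 -1.05 without E1 library 2. From E4 to Ech, Nfib rose by 1.6-fold (edgeR adjusted p = 0.011, but log2 0.58 and adjusted p = 0.06 without Ech library 2) and Hes1 by 3.6-fold (log2 1.85 ± 0.58, edgeR adjusted p = 0.049), where 4.45% of all genes were called (2.41% higher) and both members overlapped between the stages. The Hes1 call was lost in most fits that left out 1 library and, for example, was log2 1.23 without Ech library 6, the library with 17.26 CPM. With the replicate number as a block, Hes1 was no longer called between E4 and Ech (log2 1.78), and Sox9 was called at E1 (log2 -0.95, edgeR adjusted p = 0.034).

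**Figure D2:**
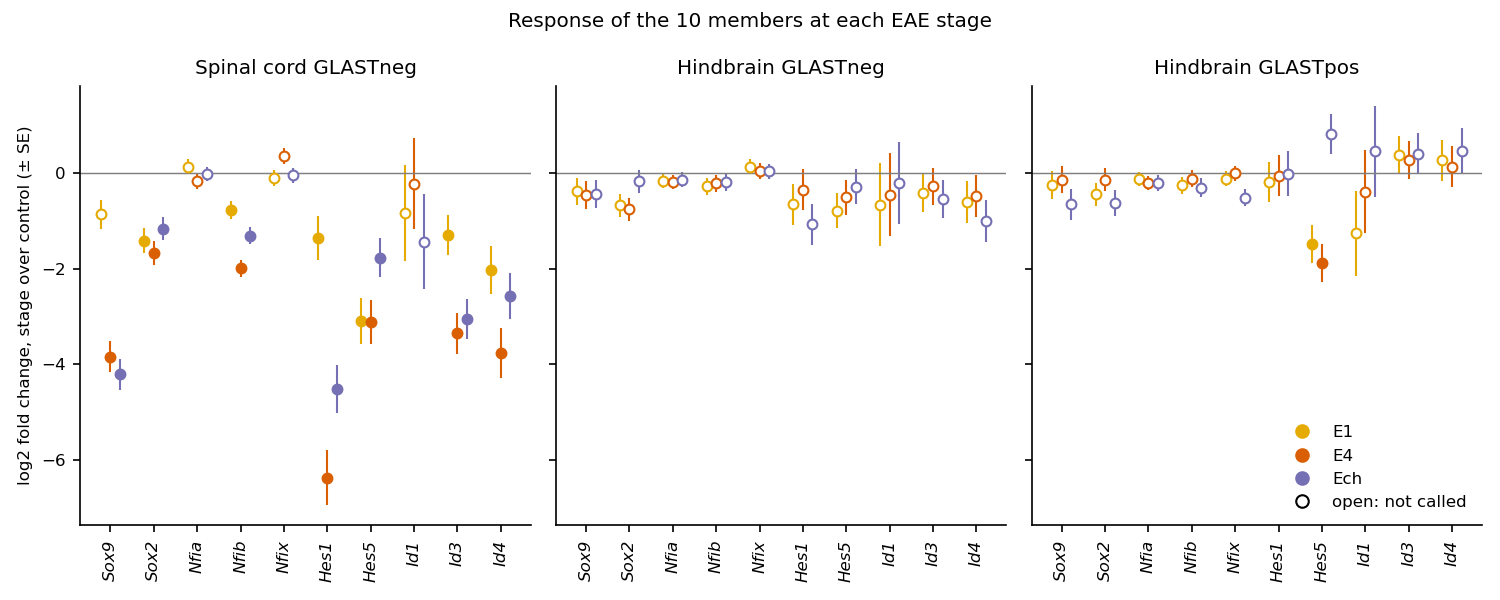
Response of the 10 genes at E1, E4 and Ech over the controls of the same population, as log2 fold change on the vertical axis with bars of 1 SE, where filled points passed the adjusted p threshold and open points did not. In spinal cord the falls of Sox9 and Hes1 reach -4.21 and -6.37, and in hindbrain the only filled points are those of Hes5 in GLASTpos cells at E1 and E4.

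Since astrocyte markers fell in the same libraries, the members were also set against them, as log2 of (CPM + 1) over the summed CPM of the 7 astrocyte markers, an alternative chosen after seeing the data. S100b was not in this denominator and was not called lower at any stage. The sum of 8 markers with S100b fell by a smaller factor at E4 and Ech. The size of these ratios depends on that choice, and ratios to the sum of 8 were not tested. The ratio was tested by an exact two-sided permutation test per gene over the 10646 genes that averaged 5 CPM or more in spinal cord, which Id1 did not. At E1 none of the 9 members, and 0% of all genes, was called on this scale, where the smallest p that 5 against 5 libraries allow is 0.0079 and the members with an unadjusted p below 0.05 were Nfia (1.27), Hes5 (-1.71) and Id4 (-1.10). At E4 Hes1 was still lower (-2.20, adjusted p = 0.0052), and Sox2 (1.83), Nfia (3.43), Nfib (1.64) and Nfix (3.95) were higher. Among all genes at E4, 93.9% were called on this scale, 93.1% higher and 0.836% lower, with a median of 3.67. Sox9 (-0.38, adjusted p = 0.095), Id3 (0.09), Id4 (-0.28) and Hes5 (0.81) were not called. At Ech Sox2 (2.72), Nfia (3.93), Nfib (2.61), Nfix (3.88), Hes5 (2.20) and Id4 (1.53) were higher, where 97% of all genes were called (96.5% higher and 0.507% lower) and the median was 4.05. Sox9 (-0.34, adjusted p = 0.36), Hes1 (-0.73, adjusted p = 0.095) and Id3 (0.93, adjusted p = 0.073) were not called at Ech. Of the 4 members called higher at E4, Sox2, Nfia and Nfib lay below the median of all genes and Nfix above it.

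**Figure D3:**
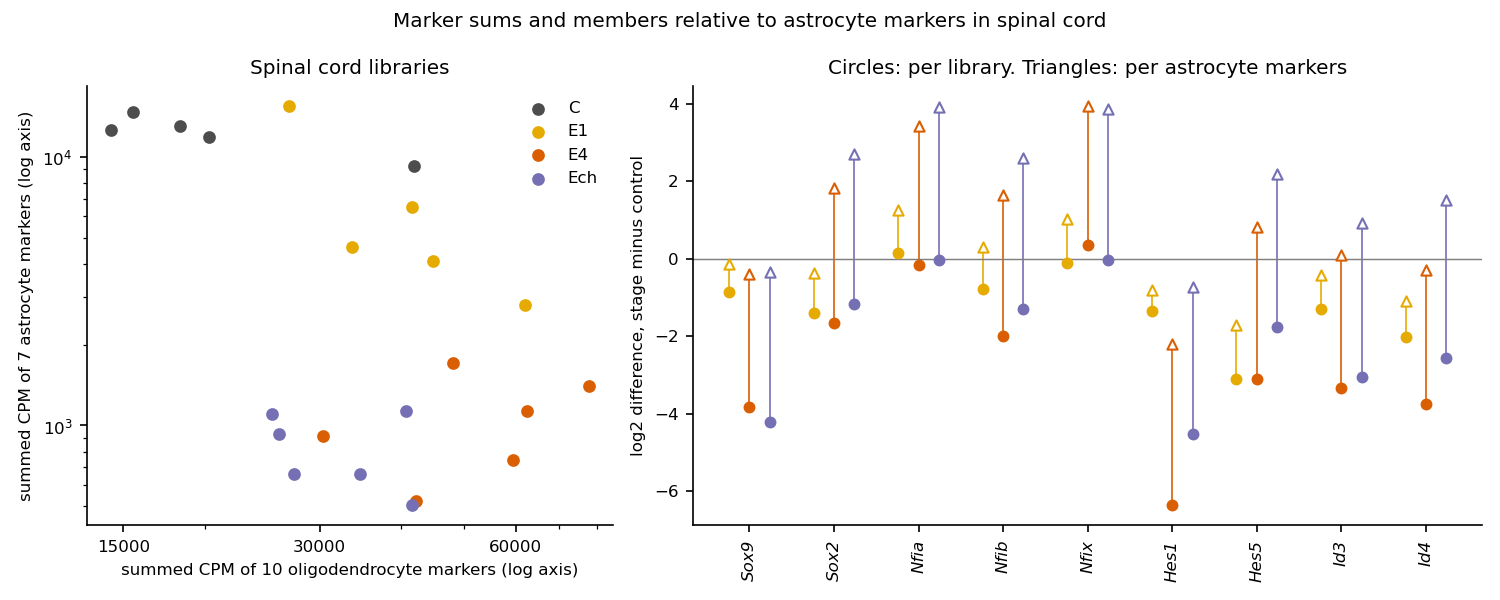
Left, summed CPM of 7 astrocyte markers against that of 10 oligodendrocyte markers in each spinal cord library, on log axes, coloured by stage. Right, difference of each stage from control for 9 members on the log2 scale, per library (circles) and relative to the astrocyte markers (triangles). The E4 and Ech libraries sit at 504.7 to 1709 CPM of the astrocyte sum where controls sit at 9239 or more, and the Sox9 triangles lie between -0.38 and -0.13.

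Other genes of the same pathways were counted from lists. Of 24 tested Notch pathway genes other than Hes1 and Hes5, 0 rose and 4 fell at E1, 2 rose and 10 fell at E4, and 1 rose and 9 fell at Ech (list medians -0.72, -0.81 and -0.73, against 0.00 for all genes). The shares of all genes that fell are the 4.48%, 12.7% and 11% given above, with 8.42%, 22.4% and 18.7% called in either direction, and they are the background of this list and of the next 3. Nothing particular to a list is read from these counts. Lfng, a glycosyltransferase that modifies Notch receptors, fell from 342 ± 97.83 CPM to 30.17 ± 26.87 CPM at E4 and 12.37 ± 7.567 CPM at Ech. Hey1, another Notch-driven repressor, fell from 48.66 ± 12.78 CPM to 4.995 ± 2.407 and 7.396 ± 2.189 CPM. Rbpj itself was higher at E4 (55.67 ± 10.2 against 32.09 ± 8.166 CPM, edgeR adjusted p = 0.04). Of the ligands, Jag1 fell at E1 (log2 -2.11 ± 0.47) and Dll3, which precursor cells express, rose at Ech (log2 3.18 ± 1.13, edgeR adjusted p = 0.039).

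Of 24 BMP pathway genes other than the ID members, 4, 5 and 4 fell and 0, 2 and 0 rose at E1, E4 and Ech (list medians -0.10, -0.51 and -0.13). Id2, the remaining ID gene, fell from 617.1 ± 66.36 CPM to 39.99 ± 30.87 CPM at E4 and 61.35 ± 20.37 CPM at Ech, and the receptor gene Bmpr1b from 44.45 ± 12.27 CPM to 3.684 ± 3.293 and 3.578 ± 2.405 CPM. At E4 the pathway inhibitor Smad7 rose (151.8 ± 66.44 against 54.83 ± 32.81 CPM, log2 1.46 ± 0.41). Of 16 genes known as targets of SOX9 or NFI in astrocytes, 9, 12 and 12 fell and 1, 1 and 1 rose. Mlc1 was at log2 -4.41 and Fgfr3 at log2 -4.92 at E4, Gfap was higher at E1 and E4 (log2 1.98 and 1.10) and S100b at Ech (log2 0.90). Since 8 of these 16 genes are in the astrocyte marker list, they are no separate measure of it. Of 35 other glial transcription factors, 8, 14 and 14 fell and 2, 4 and 9 rose. Pou3f2, Rorb and Dbx2, factors of astrocytes and progenitors, fell at E4 (log2 -4.05, -4.02 and -3.56), while Sox10 and Nkx6-2, factors of oligodendrocytes, rose (log2 1.43 and 2.70). At Ech the rising factors included Sox11 (log2 2.37 ± 0.57), known from progenitors, beside the rise of precursor markers to 1309 CPM.

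In hindbrain GLASTneg astrocytes no member was called at any stage, where 0.677%, 0.755% and 0.197% of all genes were called by edgeR at E1, E4 and Ech. DESeq2's Wald test called 0 members as well, and at an unadjusted p below 0.05 there were 2 members at E1 (Sox2 and Hes5), 1 at E4 (Sox2) and 2 at Ech (Hes1 and Id4). Sox2 was 583.2 ± 124.1 CPM in controls (444.9, 529.1, 534.2, 640.9 and 767.2), 366.8 ± 61.67 CPM at E1 (265.2 to 435.5) and 345.6 ± 78.76 CPM at E4 (247.3 to 448.6). All E1 libraries lay below the controls, yet the log2 differences of -0.67 (-1.14 to -0.20) and -0.75 (-1.23 to -0.28) had edgeR adjusted p = 0.35 and 0.21 over all genes. Fitted on the groups of each contrast alone, the edgeR adjusted p was 0.023 and 0.0068, and that fit also called Hes5 at E1 and Hes1 and Id4 at Ech. These fits called more of all genes as well, 2.93%, 3.14% and 1.17% at E1, E4 and Ech. Sox9 was 1411 ± 261.8 CPM in controls and 1086, 1025 and 1042 CPM at the 3 stages, with a log2 interval at E4 of -1.03 to 0.10, and the spinal cord change of -3.84 lies outside it. Nfia, Nfib and Nfix had log2 differences between -0.27 and 0.14 at all stages.

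In hindbrain GLASTpos astrocytes Hes5 fell in acute EAE. Its control libraries held 28.61, 36.05, 45.89, 48.51 and 76.69 CPM. At E1 it ranged from 9.31 to 38.78 CPM (median 12.94) and at E4 from 4.131 to 22.38 CPM (median 11.43), whereas the 4 Ech libraries held 34.12, 54.62, 80.67 and 168.5 CPM. All E4 libraries lay below all controls, 1 E1 library overlapped them, and the Ech libraries lay across and above them. Hes5 was the 1 member of 10 called at E1 (log2 -1.48 ± 0.39, edgeR adjusted p = 0.028; 1.58% of all genes called, 0.262% lower) and at E4 (log2 -1.88 ± 0.39, edgeR adjusted p = 0.0017; 2.18% called, 0.424% lower). The E1 call was lost without 7 of the 11 libraries taken out in turn, for example without control library 3 (log2 -1.23). At Ech 0 members were called by edgeR (1.43% of all genes) and by DESeq2's Wald test, with Nfix, Sox2 and Hes5 at an unadjusted p below 0.05, and Hes5 was at log2 0.83 (0.02 to 1.65, adjusted p = 0.26).

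No other member was called in GLASTpos hindbrain astrocytes. Sox9 was 1323 ± 141.7 CPM in controls and 1114, 1207 and 845.3 CPM at E1, E4 and Ech, and the Ech libraries (668.4, 861.2, 868.2 and 983.6 CPM) lay below the controls with an edgeR adjusted p of 0.26. Nfix likewise lay lower at Ech without a call (455.3 ± 84.29 against 647 ± 49.6 CPM, log2 -0.51, edgeR adjusted p = 0.14). Cell type markers of the GLASTpos Ech libraries also moved from controls. The sum of 8 astrocyte markers was 15166 against 19981 CPM and the oligodendrocyte sum 2988 against 1255 CPM. The precursor sum was 67.52 against 15.42 CPM and the neuron sum 342.8 against 114.5 CPM. Their part in the Ech levels of the members was not tested. Id4 ranged from 193.1 to 1494 CPM over the E1 and E4 libraries, against 355.9 to 1237 CPM in controls. Rbpj was higher at E4 (log2 1.15 ± 0.30), and Dner, a Notch ligand, was lower at E4 (log2 -1.30 ± 0.27) and higher at Ech (log2 1.37 ± 0.29). Gfap rose at E4 in these cells from 20.29 ± 11.96 to 218.3 ± 67.91 CPM, while Sox9, Nfia, Nfib and Nfix were not called.

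**Figure D4:**
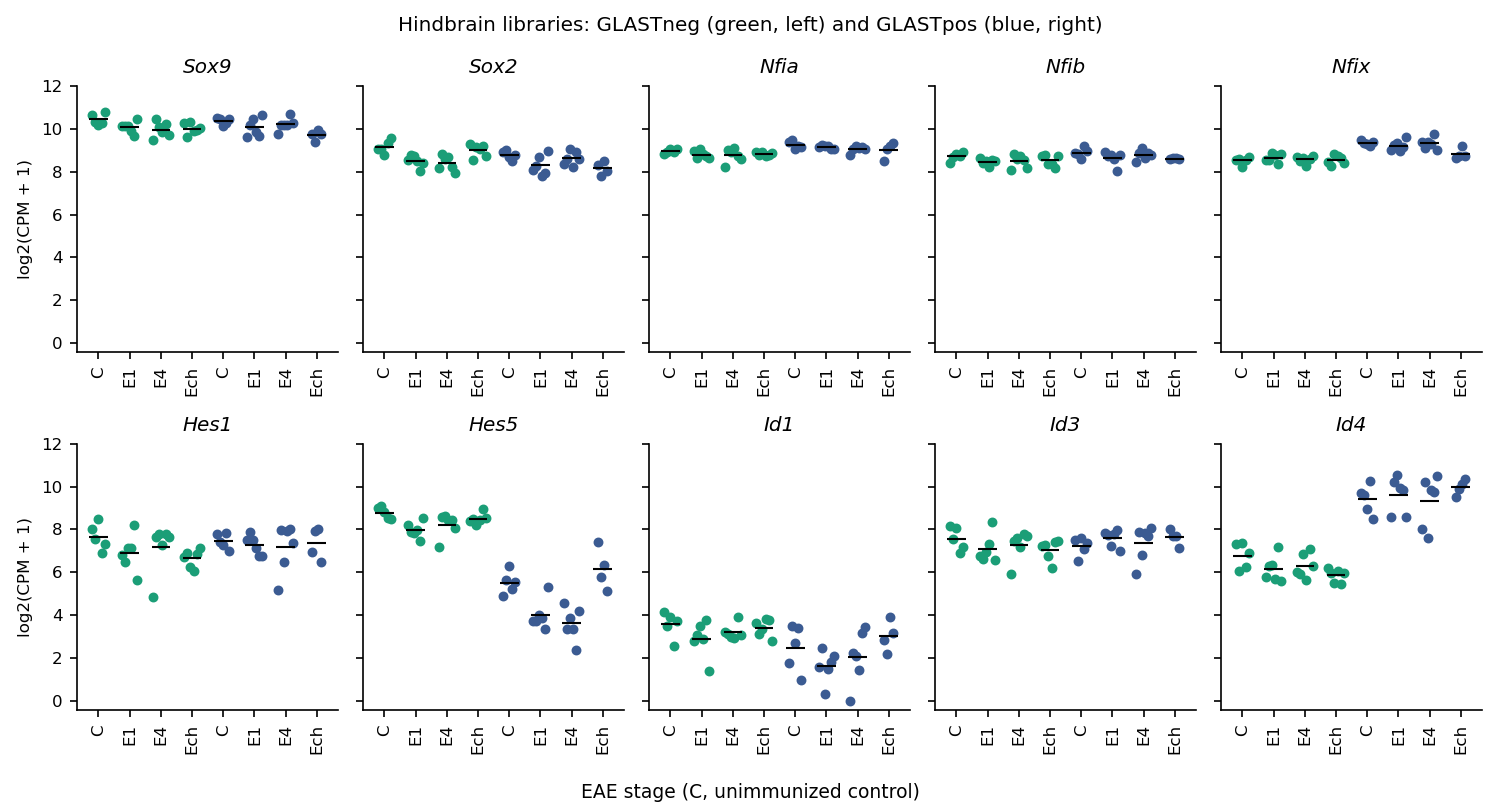
Levels of the 10 genes in the hindbrain libraries, as log2(CPM + 1) on the vertical axis by EAE stage, with GLASTneg libraries in green and GLASTpos libraries in blue, 1 point a library and a bar at the mean of the log2 values. Hes5 lies far higher in GLASTneg than in GLASTpos cells and Id4 the other way round, and Hes5 of GLASTpos cells is lower at E1 and E4 than in controls.

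The difference in response between spinal cord and hindbrain GLASTneg astrocytes was tested as an interaction in the same fit. Titles carry a number before the sample number that recurs between populations, so their libraries may share mice. The interaction tests did not use that number. At E1 edgeR called 0 members (0.214% of all genes), DESeq2's Wald test called Hes5 alone, and Sox2, Hes5 and Id4 had an unadjusted p below 0.05. Without E1 library 2 of spinal cord edgeR called Hes5 (-2.53) and Sox9 (-1.30). At E4 the response of 6 of 10 members was lower in spinal cord (8.56% of all genes called, 6.2% lower), namely Sox9 by -3.38 ± 0.42, Nfib by -1.77 ± 0.26, Hes1 by -6.03 ± 0.72, Hes5 by -2.61 ± 0.59, Id3 by -3.08 ± 0.58 and Id4 by -3.29 ± 0.69 on the log2 scale. The sample numbers are 57 or higher in all spinal cord controls, 56 or lower in 5 of 6 E4 spinal cord libraries and 56 or lower in all hindbrain GLASTneg libraries. With these ranges as a term Hes5 (-2.04, edgeR adjusted p = 0.11), Id3 (-2.36, edgeR adjusted p = 0.053) and Id4 (-2.49, edgeR adjusted p = 0.096) were no longer called at E4. At Ech 4 members differed (7.2% of all genes called, 5.47% lower), namely Sox9 (-3.77 ± 0.43), Nfib (-1.13 ± 0.26), Hes1 (-3.45 ± 0.64) and Id3 (-2.51 ± 0.57). The oligodendrocyte sum of hindbrain GLASTneg libraries stayed between 3112 and 6727 CPM by group, and their astrocyte sum between 18715 and 22366 CPM. Between the hindbrain GLASTpos and GLASTneg responses 0 members were called at E1, E4 and Ech by edgeR (0.00857%, 0.00857% and 0.06% of all genes) or DESeq2's Wald test, with 0, 1 (Hes5) and 3 (Hes5, Nfix and Id4) at an unadjusted p below 0.05, so the fall of Hes5 was not shown to be particular to GLASTpos cells. The Hes5 interaction was -0.69 (-1.74 to 0.36) at E1 and -1.38 (-2.44 to -0.32, adjusted p = 0.36) at E4.

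Among unimmunized controls, the hindbrain populations differed in 3 members, where 13.5% of all genes were called. Hes5 was 9.43-fold higher in GLASTneg cells (355.8, 365, 444.9, 514.2 and 545.2 CPM) than in GLASTpos cells (28.61 to 76.69 CPM; log2 3.24 ± 0.42, edgeR adjusted p = 1.3e-08). Id4 was 6.41-fold lower in GLASTneg cells (65.79, 74.45, 117.5, 157.2 and 162.5 CPM) than in GLASTpos cells (355.9, 490.8, 779.3, 833 and 1237 CPM; log2 -2.68 ± 0.48, edgeR adjusted p = 2.2e-05). Nfix was 1.75-fold lower in GLASTneg cells (301.7 to 413.1 against 586.7 to 720.6 CPM; edgeR adjusted p = 0.00032). None of these 3 overlapped between the populations. They were picked as called, and the share of all genes without overlap was not counted. The sample numbers in the titles are all 56 or lower in hindbrain GLASTneg and all 57 or higher in hindbrain GLASTpos libraries, so any effect of that order cannot be told apart from GLAST within hindbrain. With these number ranges as a term, estimated from the spinal cord libraries, Hes5 and Nfix stayed called and Id4 was at log2 -1.74 with an edgeR adjusted p of 0.15. The titles also carry a number before the sample number that recurs between populations, so libraries of different populations may share mice. With that number as a block in limma's voom fit 21.1% of all genes were called, Hes5, Id4 and Nfix stayed called, and Nfia was called too (log2 -0.30, limma adjusted p = 0.045). Notch pathway genes were higher in GLASTneg cells for 6 of 24 and lower for 1, with Dner at 203.8 ± 30.47 against 41.75 ± 13.29 CPM and Hey1 at 76.08 ± 11.52 against 26.03 ± 7.659 CPM. Of the BMP list 3 were higher and 2 lower, and Id2 took the direction of Hes5 (1135 ± 146.5 against 187.6 ± 26.32 CPM). Olig2 and Olig1 were also higher in GLASTneg cells (log2 3.69 and 3.12), and the oligodendrocyte sum was 3112 CPM there and 1255 CPM in GLASTpos cells.

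Control spinal cord GLASTneg astrocytes held less of 4 members than hindbrain GLASTneg astrocytes, where 5.33% of all genes were called (2.25% lower). Hes5 was 16.3-fold lower (27 ± 11.38 against 445 ± 85.42 CPM; edgeR adjusted p = 2.8e-10), Sox9 3.34-fold, Sox2 2.23-fold and Nfia 1.54-fold lower (edgeR adjusted p = 0.0057). None of the 4, picked as called, overlapped between the regions, and the share of all genes without overlap was not counted. The sample numbers of the regions do not overlap either. With the number ranges as a term Nfia was no longer called (log2 -0.43, edgeR adjusted p = 0.36). With the recurring title number as a block in the voom fit, limma called these 4 and also Id1 (log2 -4.25, limma adjusted p = 0.00089). That fit called 6.83% of all genes. Id1 was above the floor in only 2 of 5 spinal cord controls, and edgeR did not call it (log2 -2.94, edgeR adjusted p = 0.069). The oligodendrocyte sums of these groups were 22087 and 3112 CPM, the astrocyte sums of 8 markers 14409 and 20309 CPM, and their part in the differences was not tested. Across the 3 control populations the means of all members except Nfib and Nfix were lowest in spinal cord. Hes5 of spinal cord overlapped with that of hindbrain GLASTpos cells. Sox9 of the hindbrain populations did not differ beyond its spread (log2 0.09, -0.50 to 0.68), and Nfib was not called in either comparison.

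In the FVB/N experiment the names of the libraries matter. A supplementary list of normalized counts of 500 genes gives another group name to 12 of the 15 libraries, while each column matches 1 deposited column divided by a constant (largest deviation 0.000492%, next best column 87.8% or more). Spinal cord Hox genes summed to 454.8 CPM in the libraries labelled hindbrain GLASTneg and to 0 CPM in those labelled spinal cord GLASTneg. Slc1a3, by which the cells were divided, averaged 10454 CPM in those labelled spinal cord GLASTneg and 1976 CPM in those labelled forebrain GLASTpos. These levels depart from the labels and follow the other names, under which labelled forebrain GLASTpos is hindbrain GLASTneg, labelled hindbrain GLASTneg is spinal cord GLASTneg, labelled hindbrain GLASTpos is forebrain GLASTpos and labelled spinal cord GLASTneg is hindbrain GLASTpos. Values are given by label, with the other name beside them.

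The libraries labelled hindbrain GLASTneg and hindbrain GLASTpos differed in 7 of 10 members (4.29% of all genes called). Hes5 was 55.44, 55.45 and 65.83 CPM in the former and 804.9, 1220 and 1936 CPM in the latter (log2 -4.49 ± 0.32, edgeR adjusted p = 2.8e-21). Sox9 (log2 -0.90), Sox2 (-0.93), Id3 (-0.95, edgeR adjusted p = 0.042) and Id4 (-1.88) were lower and Nfix (0.82, edgeR adjusted p = 0.029) higher. Leaving out 1 library left 4 to 6 members called, with 4 left without library 3 labelled hindbrain GLASTpos. Id1 held 2 counts in all 3 libraries labelled hindbrain GLASTneg and 110 counts in those labelled hindbrain GLASTpos, a ratio of 35.81 with a counting interval of 9.681 to 299.4. Under the supplementary names this pair is spinal cord GLASTneg and forebrain GLASTpos. The pair that those names call hindbrain GLASTneg and GLASTpos differed in Id4 alone of the 10 members (88.21 ± 6.532 against 412.7 ± 36.08 CPM, log2 -2.21 ± 0.29; 4.11% of all genes called), and its Hes5 levels were 75.83 ± 25.44 and 76.36 ± 14.85 CPM (log2 0.00, adjusted p = 1). Set beside the C57BL/6 controls, where GLASTneg minus GLASTpos was 3.24 for Hes5 and -2.68 for Id4, Id4 was lower in the GLASTneg cells of hindbrain under either naming, and Hes5 was higher in GLASTneg cells under neither. The 2 experiments differ in strain and were not tested against each other.

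Between the libraries labelled forebrain GLASTneg and GLASTpos, Hes5 (339.6, 651.3 and 1063 against 59.77, 62.56 and 105.2 CPM; log2 3.17 ± 0.30) and Id3 (log2 1.25 ± 0.29, edgeR adjusted p = 0.006) were higher in the former, where 1.32% of all genes were called (0.608% higher). Under the supplementary names that pair is forebrain against hindbrain GLASTneg, and the forebrain GLASTneg and GLASTpos pair had 0 members called by edgeR (0.181% of all genes called), with Hes5 at log2 -0.97 (adjusted p = 0.16) and 2 members, Hes5 and Nfix, at an unadjusted p below 0.05. The libraries labelled spinal cord GLASTneg exceeded those labelled hindbrain GLASTneg in Id4 (379.3, 407.9 and 451 against 43.93, 71.5 and 89.35 CPM; log2 2.60 ± 0.31) and Id1 (37 against 2 counts, ratio 13.89, counting interval 3.582 to 118.9), with 7.47% of all genes called (3.32% higher). By the supplementary names this pair is hindbrain GLASTpos against spinal cord GLASTneg. Under the supplementary names the spinal cord and hindbrain GLASTneg pair had 0 members called by edgeR (1.4% of all genes called), with Id1 alone at an unadjusted p below 0.05 (adjusted p = 0.074). Libraries labelled forebrain GLASTneg exceeded those labelled hindbrain GLASTneg in 6 members (2.78% of all genes called, 1.52% higher), namely Sox9, Sox2, Hes5 (log2 3.53 ± 0.31), Id1 (115 against 2 counts), Id3 and Id4. By the supplementary names this pair is forebrain against spinal cord GLASTneg. The pair that those names call forebrain and hindbrain GLASTneg differed in Hes5 and Id3 (1.32% of all genes called).

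**Figure D5:**
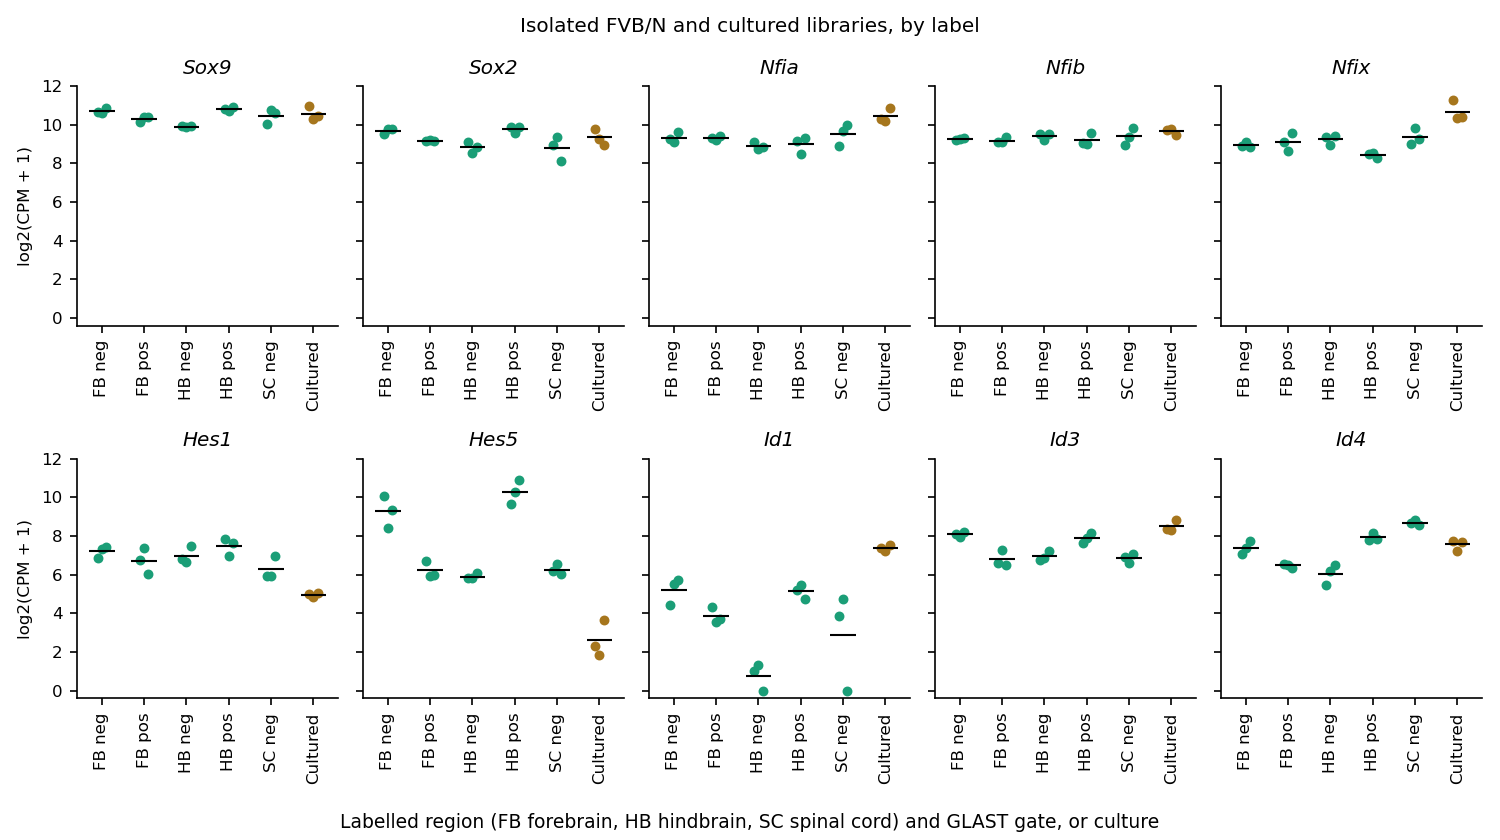
Levels of the 10 genes in the 15 FVB/N libraries and the 3 cultured libraries, as log2(CPM + 1) on the vertical axis by labelled group, with 1 point a library and a bar at the mean of the log2 values. Hes5 is high only in the libraries labelled forebrain GLASTneg (684.6 CPM) and hindbrain GLASTpos (1320 CPM), and Id4 is highest in those labelled spinal cord GLASTneg (412.7 CPM). Under the supplementary names labelled hindbrain GLASTpos is forebrain GLASTpos and labelled spinal cord GLASTneg is hindbrain GLASTpos.

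Cultured astrocytes differed from the mean of the 5 sorted groups in 6 members, where 36% of all genes were called and the median of all genes was log2 0.43. This comparison does not depend on the names of the sorted libraries. Hes5 was 6.073 ± 4.844 CPM in culture (2.629, 3.978 and 11.61), below all 15 sorted libraries (55.44 or more), a 32.3-fold decrease (log2 -5.02 ± 0.40, edgeR adjusted p = 5.5e-14). Hes1 was 28, 31.03 and 31.63 CPM, below every sorted library (59.08 or more; log2 -2.07 ± 0.31). The NFI genes went the other way, with Nfix at 1701 ± 686.2 CPM (log2 1.70 ± 0.18) and Nfia at 1425 ± 352.5 CPM (log2 1.25 ± 0.18, edgeR adjusted p = 1.8e-07), while Nfib was not called (log2 0.35, 0.01 to 0.69).

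Id1 was 146.8, 163.9 and 185.4 CPM in culture, above all sorted libraries, of which the highest held 52.58 CPM (log2 3.77 ± 0.35, edgeR adjusted p = 7.4e-12). Id3 rose as well (366.9 ± 79.09 CPM; 2.29-fold, edgeR adjusted p = 2.3e-06), and Id4 did not pass (log2 0.25, -0.15 to 0.66). Sox9 (log2 0.16, -0.16 to 0.48) and Sox2 (log2 0.10, -0.28 to 0.48) were not called, and the intervals leave out a log2 change of 1. In the same libraries the 8 astrocyte markers summed to 1968 ± 153.2 CPM, against 21346 to 23513 CPM in the sorted groups, and 11 of 16 SOX9 or NFI target genes were lower and 2 (Gfap and Mlc1) higher. Gjb6 was at log2 -7.89 and Gfap at log2 3.80. Of the Notch list 5 of 23 genes rose (Numbl, Dtx4 and Dner among them) and 5 fell (Lfng, Jag1 and Heyl among them), and of the BMP list 9 of 22 rose and 3 fell. The myeloid sum was 1295 ± 1331 CPM in culture, and culture, age, region and strain cannot be told apart in this comparison.

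Over the 12 EAE group means, the genes whose log2(CPM + 1) was most like that of a member were found among 9031 genes averaging 10 CPM or more. The 12 points share libraries of 1 sort and the fall of astrocyte markers in spinal cord, so the correlations are descriptions. Sox9 was most like Plpp3, Gabrb1 and Rbpms2 (Pearson's r = 0.995, 0.994 and 0.994), Hes1 most like Tril (0.991), Id3 most like Hnmt (0.998) and Id4 most like Aldh5a1 (0.994). Hes5 was most like Fzd2 (0.980), Sox2 most like Slc30a10 (0.984), Nfib most like Akr1b10 (0.981) and Nfia most like Atxn1 (0.970). Nfix had the weakest closest match, Fto (0.942). Among the members themselves Sox9 was close to Id3 (0.98) and Hes1 (0.96), and Nfix was not close to Sox9 (-0.26).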

How the data were processed

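RNA of sorted or cultured mouse astrocytes was made into QuantSeq 3′ libraries and sequenced as 50-base single reads. The authors mapped the reads to GRCm38 with HISAT 0.1.5 and counted them per gene with HTSeq 0.6.1p1, and the deposited tables hold these raw counts, unnormalized, per library. Ensembl identifiers were matched to symbols for 48058 genes of the EAE table and 25608 of the subtype table. Groups came from the sample titles. Genes that summed to 10 or more counts in a fit were tested with edgeR 4.0.16 (TMM, quasi-likelihood, R 4.3.3) in 1 fit of 66 EAE libraries (23324 genes), 1 of 15 sorted FVB/N libraries (14957 genes) and 1 of those with the cultured libraries (17126 genes). P-values measure the spread between these libraries, for which the sources do not always name separate animals. Genes named beside the 10 are from pathway lists, by lowest adjusted p in each direction, and the nearest 3 by correlation. The members and lists were chosen with earlier results of these data known. Alternatives used DESeq2 1.42.0 and limma 3.58.1. The scripts were tested on simulated data. A supplementary list of normalized counts served only to compare library names.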

Additional observations from a re-analysis of the deposited data

Results flagged for a closer look

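Of 120 sets of 1 gene in 1 group of 4 to 6 EAE libraries, 13 held a library far from the others of its group, where chance gives about 1 in 20. In spinal cord these were Sox9 at 624.8 CPM in E1 library 2 (next 194.6 CPM), Hes1 at 17.26 CPM in Ech library 6, Hes5 at 20.09 CPM in Ech library 3, Id3 at 35.48 CPM in E4 library 5, and Id1 at 5.652 CPM in control library 4 and at 7.188 CPM in E4 library 2. In hindbrain GLASTneg cells they were Hes1 at 28.21 CPM in E4 library 1, below the others (152.1 CPM or more), Id1 at 14.04 CPM in E4 library 5, and both Id3 at 326.9 CPM and Id4 at 142.1 CPM in E1 library 5. In hindbrain GLASTpos cells they were Nfia at 434.1 CPM in E4 library 1, Nfix at 580.5 CPM in Ech library 3 and Hes5 at 38.78 CPM in E1 library 6.

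The response to EAE differed between spinal cord and hindbrain GLASTneg astrocytes in the edgeR interaction test. At E4 the log2 response in spinal cord minus that in hindbrain was -3.38 for Sox9, -1.77 for Nfib, -6.03 for Hes1, -2.61 for Hes5, -3.08 for Id3 and -3.29 for Id4. With the ranges of title sample numbers as a term, Hes5 (-2.04, edgeR adjusted p = 0.11), Id3 (-2.36, edgeR adjusted p = 0.053) and Id4 (-2.49, edgeR adjusted p = 0.096) were no longer called at E4. At Ech it was -3.77 for Sox9, -1.13 for Nfib, -3.45 for Hes1 and -2.51 for Id3. The fall of astrocyte markers in spinal cord moved with these values.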

How the results depend on the processing

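Of 4530 values of the 240 results by gene under alternatives that kept the measurement per library, 4363 kept their side of the threshold, 104 lost and 57 gained a call, and 6 changed direction with a call on either side. Changes of sign without any call are counted among the 4363. The 6 were under the supplementary names, where hindbrain GLASTneg minus GLASTpos was 0.06 for Id1, -0.26 for Nfix and 0.28 for Sox2, the forebrain pair was -0.97 for Hes5, and spinal cord minus hindbrain was -3.66 for Id1 and -0.38 for Id4. Under these names the members called fell from 7 to 1, from 2 to 0, from 2 to 0 and, for forebrain minus hindbrain GLASTneg, from 6 to 2. The shares of all genes called under these names were 4.11%, 0.181%, 1.4% and 1.32%. Relative to astrocyte markers the E1 count in spinal cord was 0 and log2 differences changed sign for Nfib (0.30) and Nfix (1.02) at E1, for Sox2 (1.83), Nfia (3.43), Nfib (1.64), Hes5 (0.81) and Id3 (0.09) at E4, and for Sox2 (2.72), Nfia (3.93), Nfib (2.61), Nfix (3.88), Hes5 (2.20), Id3 (0.93) and Id4 (1.53) at Ech, since the denominator itself fell.

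With only the groups of a contrast in the fit, counts were 3 in place of 6 (E1 spinal cord), 2, 1 and 2 in place of 0 (hindbrain GLASTneg at E1, E4 and Ech), 1 in place of 0 (hindbrain GLASTpos at Ech), 3 in place of 5 (E4 minus E1), 1 in place of 2 (Ech minus E4), 1 in place of 0 and 7 in place of 4 (spinal cord interaction at E1 and Ech) and 1 in place of 0 (GLASTpos interaction at Ech). The shares of all genes called in these fits were 5.25% (E1 spinal cord), 2.93%, 3.14% and 1.17% (hindbrain GLASTneg) and 2.44% (hindbrain GLASTpos). They were 2.61% (E4 minus E1), 5.6% (Ech minus E4), 0.317% and 12.8% (spinal cord interactions) and 0.484% (GLASTpos interaction). Libraries numbered 57 or higher alone gave 2 members at E1 (3.19% of all genes called). The number ranges as a term gave 3 for E4 minus E1, 0 for Ech minus E4 and 3 for the E4 interaction. Those fits called 1.99%, 1.47% and 3.45% of all genes. DESeq2's Wald test gave 4 for Ech minus E4, 7 for control spinal cord minus hindbrain and 1 for the E1 interaction. It called 6.88%, 7.27% and 1.12% of all genes in these comparisons. The cause was not tested. Libraries with the same replicate number correlated at -0.12 to 0.23, so the replicate numbers do not pair them. The other title number forms 26 blocks over the EAE libraries (consensus correlation 0.0366). As a block in limma's voom fit it gave 4 in place of 3 and 5 in place of 4 for the control pairs (21.1% and 6.83% of all genes called). No voom fit without the block was run, so the block and the change of test cannot be told apart. The replicate block gave 1 for Ech minus E4 (4.05% of all genes called) and moved no other count by over 1.5 times.

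Leaving out 1 library gave 4 to 7 members at E1, 7 to 8 at E4 and 7 to 7 at Ech in spinal cord, 0 to 0 in hindbrain GLASTneg at all stages, 0 to 1, 1 to 1 and 0 to 0 in GLASTpos, 4 to 6 for E4 minus E1, 0 to 2 for Ech minus E4 (0 without Ech library 2), 3 to 3 and 4 to 5 for the control pairs, and 0 to 2, 6 to 7 and 4 to 6 for the spinal cord interactions. By FVB/N label it gave 4 to 6 for the hindbrain pair, 1 to 2 for the forebrain pair (1 without GLASTpos library 1 or 3), 1 to 4 for spinal cord minus hindbrain (4 without spinal cord library 1, and 1 without spinal cord library 2 or any hindbrain library), 3 to 5 for forebrain minus hindbrain (3 without forebrain library 3 or hindbrain library 1 or 2), and 6 to 7 for culture. The share of all genes called in the fits that left out 1 library is not given here. DESeq2 size factors moved the median of all genes by over 0.1 only for culture, from 0.43 to 0.32. Depth limits Id1 most, at or below 3 counts in most spinal cord libraries.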
